A study of Homo sapiens with 6 samples.

Results

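Fc receptors are the proteins by which myeloid cells sense antibody. The 10 genes described here were chosen by name: the Fc gamma receptor genes FCGR1A, FCGR1B, FCGR2A, FCGR2B, FCGR2C and FCGR3A, the IgA receptor gene FCAR, the neonatal Fc receptor gene FCGRT, the shared signalling chain gene FCER1G and the kinase gene SYK. All 10 had a row among the 26810 gene rows of the deposited table, and 9 of them were among the 12449 genes with enough signal to test. FCGR3A was near 0 and was not tested.

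The libraries came from U-937, a human leukemia line of monocyte-like cells. In both groups the cells were a single Cas9-expressing clone that had received a guide RNA by lentivirus and selection with blasticidin at 10 µg/ml and hygromycin B at 200 µg/ml, with harvest around day 8 to 10. One group of 3 libraries had the control guide sgNS and the other group of 3 had sgMETTL1.3, a guide against METTL1, which methylates guanosine in tRNA at N7. The comparison addresses how expression changes under this guide. With 1 clone and 1 guide against METTL1, loss of METTL1 and any side effect of that guide cannot be told apart. Nothing in the labels says that replicates were separate cultures, so p-values reflect only how these libraries vary, which may be technical.

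Activating Fc receptors bind the constant part of IgG or IgA on an antibody-coated target and pass the signal on through a tyrosine-based motif, the ITAM. FCGR2A and FCGR2C carry that motif in their own tails, whereas the receptors encoded by FCGR1A, FCGR3A and FCAR borrow it from the FCER1G chain. Src family kinases phosphorylate the motif, SYK docks on it, and the signal runs through adaptors, phospholipase C gamma and phosphoinositide 3-kinase to phagocytosis and cytokine release. FCGR2B carries an inhibitory motif that recruits lipid phosphatases and opposes this signal. FCGRT encodes FcRn, a relative of MHC class I that pairs with beta-2 microglobulin and carries IgG through endosomes; it does not use this route.

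Reference promoter sequence is shown for members that fell and whose window held one of the motifs searched. FCER1G also fell, and its window held none of them. RefSeq promoters (GRCh38.p14) were matched for 7 of the 10 genes, and the 250 bases before each start were searched on both strands for GAGGAA, the core letters bound by the ETS factor PU.1, and for TTCNNNGAA, the core letters bound by STAT factors. GAGGAA was found for 4 of the 7 genes (FCGR1A, FCGR2A, FCGR2B and SYK), in 5 of the 14 windows of the 7 genes, some of which have several, and stood in 23.6% of all 34943 promoter windows. TTCNNNGAA was found for 2 of the 7 (FCGR1A and FCGR2B), in 2 of the 14 windows, and stood in 6.56% of all windows. For shared runs, only the first listed window of each of the 7 genes was compared, on the same strand. The longest run shared by a pair of these had 20 bases, between FCGR1A and FCGR2A, and only these 2 of all windows held it. It begins 52 bases before the FCGR1A start and 51 bases before the FCGR2A start, and capitals mark it in 120 bases of each, at chr1:149782546-149782665 and chr1:161505309-161505428 on the plus strand.
FCGR1A: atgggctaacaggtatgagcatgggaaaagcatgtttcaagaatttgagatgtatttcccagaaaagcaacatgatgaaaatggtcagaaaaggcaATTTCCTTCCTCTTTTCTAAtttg
FCGR2A: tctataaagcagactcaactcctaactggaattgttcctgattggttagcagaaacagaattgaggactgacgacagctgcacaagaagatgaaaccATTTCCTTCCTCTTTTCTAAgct
Within that run, capitals mark GAGGAA as read on the other strand.
Shared run: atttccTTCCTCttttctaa
The FCGR1A window also held TTCNNNGAA, 93 bases before its start and in capitals here (chr1:149782589-149782621, plus strand).
FCGR1A, STAT-type letters: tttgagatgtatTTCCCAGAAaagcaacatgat
FCGR2B, at the more downstream of its listed starts, and SYK have GAGGAA on the plus strand, in capitals (chr1:161663023-161663142 and chr9:90801664-90801783).
FCGR2B: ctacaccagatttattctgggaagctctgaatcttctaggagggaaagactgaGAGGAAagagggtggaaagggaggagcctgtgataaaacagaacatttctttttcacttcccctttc
SYK: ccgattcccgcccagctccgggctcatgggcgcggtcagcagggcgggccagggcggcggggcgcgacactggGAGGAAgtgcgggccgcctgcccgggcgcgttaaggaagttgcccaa
These matches describe letters only, and binding was not measured.

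Values are TPM (a level per transcript length, scaled to a fixed total) multiplied by 1 factor per library that makes the ERCC spike-in RNAs sum to the same amount; this is called the spike-in scale, and the values before that factor are called TPM. The factor averaged 1.19 ± 0.0518 over sgNS and 0.935 ± 0.0973 over sgMETTL1.3 libraries (SD, n = 3), so the scales differ in their zero point. Over all tested genes the median log2 fold change was -0.32 with spike-in scaling and 0.00 as TPM. A change was called at an adjusted p under 0.05 (limma, Benjamini-Hochberg over all tested genes). With spike-in scaling 49.3% of tested genes were called lower and 6.4% higher, against 26.6% and 24.4% as TPM. In bulk RNA, fewer cells with a transcript and less of it per cell cannot be told apart. METTL1 (chromosome 12, 57768471 to 57772793) was 19.7, 22 and 20.3 in sgNS and 8.28, 5.94 and 7.42 in sgMETTL1.3, lower in every library labelled with its guide. Library sgMETTL1.3 replicate 1 stood apart, since its difference from the other 2 of its group rose with the GC content of a gene's transcript (Spearman 0.838 over genes, which are not independent). The same measure was -0.731 and -0.745 for replicates 2 and 3, each set against a pair that holds replicate 1. In sgNS it was 0.040, -0.342 and 0.321. Of 13 monocyte and macrophage markers, 10 were tested, among them CD33 at 114 ± 6.64 in sgNS, while CD14, MPO and VCAN were below 1 in every library. Markers defining other lineages were at or near 0, such as CD3D, MS4A1, FCER1A and HBB at 0 in all 6 libraries, but single genes of those lists were not and moved in both directions. NKG7 and TPSAB1 fell (means of 320 to 193 and 1293 to 618), as did PAX5 (4.66 to 2.34), while CD22 and CD2 rose (22.8 to 40.6 and 2.72 to 5.27), all under both scalings. The neutrophil genes CSF3R, MMP8 and CXCR2 averaged 21.9, 20.8 and 10.9 in sgNS. The part of these genes in the results was not tested.

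Of the 9 tested members, limma called 7 lower and 0 higher on the spike-in scale (also 0 higher at an unadjusted p under 0.05). As TPM 6 fell, 1 rose and 2 did not pass. The background for these counts is the 49.3% lower and 6.4% higher, or 26.6% and 24.4% as TPM, given above. The median log2 fold change of the 9 was -0.63, or -0.29 as TPM. SYK and the FCGR1 genes had the most negative changes, the FCGR2 genes and FCER1G lay between, and FCAR and FCGRT stood at the other end under both scalings. The plot of the 9 fold changes shows that order.

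**Figure D1:**
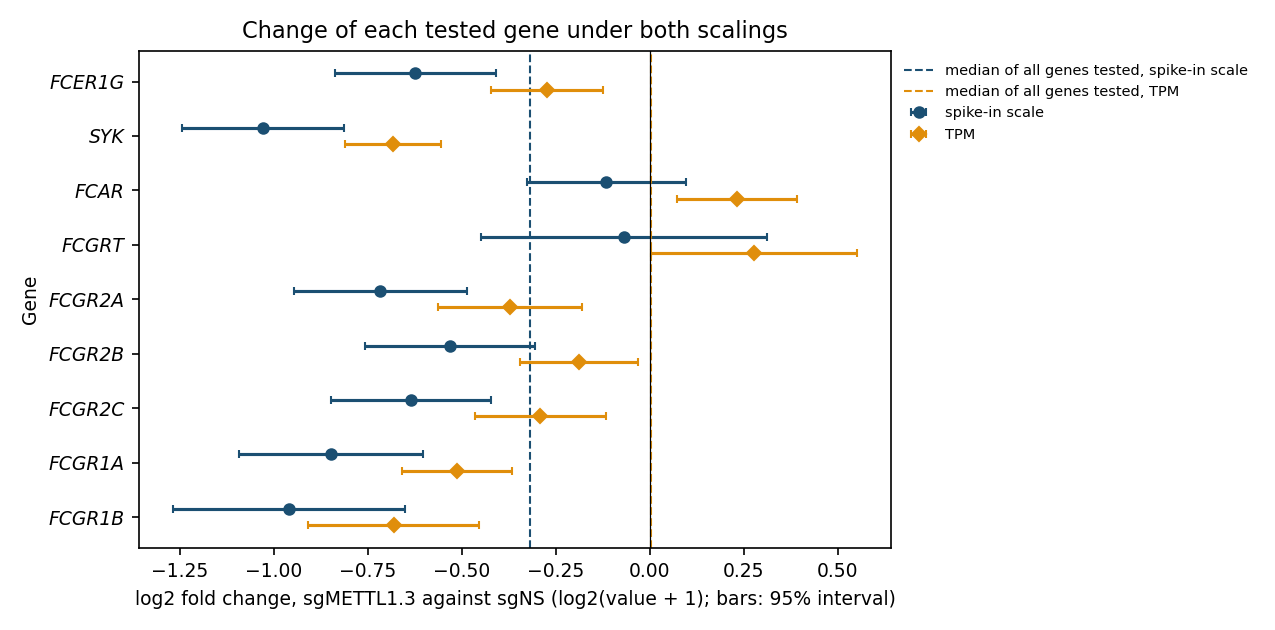
Log2 fold change of each tested gene between sgMETTL1.3 and sgNS (x axis, log2(value + 1)), with 95% intervals from limma, on the spike-in scale (circles) and as TPM (diamonds); dashed lines are the medians of all genes tested. SYK lies at -1.03 and -0.68, while FCAR is -0.12 on one scale and 0.23 on the other.

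SYK, the kinase that docks on phosphorylated ITAMs, was 169, 179 and 180 in the sgNS libraries and 90.0, 78.1 and 90.0 in the sgMETTL1.3 libraries. The groups did not overlap, as was true in the lower direction for 53.4% of tested genes. SYK fell from 176 ± 5.88 to 86.0 ± 6.85 (SD, n = 3), to 48.8% of the control mean (log2 fold change -1.03, SE 0.10, limma adjusted p = 3.18e-06). As TPM it fell too (-0.68, limma adjusted p = 0.000158). Only 6.2% of tested genes had a lower log2 fold change on the spike-in scale. The gene lies on chromosome 9 at 90801787 to 90898549 (GRCh38, GENCODE 29), plus strand, and overlaps no other annotated gene.

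FCER1G, the ITAM chain that several receptors share, was the most abundant member in each of the 6 libraries, at 727, 780 and 803 in sgNS and 504, 456 and 542 in sgMETTL1.3. Every sgMETTL1.3 library was below every control, as for 53.4% of tested genes. FCER1G fell from 770 ± 38.5 to 500.5 ± 42.8 (SD, n = 3; log2 fold change -0.62, SE 0.099, limma adjusted p = 0.000155), and it fell by 0.27 on the log2 scale as TPM (limma adjusted p = 0.0102). It is a short gene on chromosome 1 (161215234 to 161220699) with no overlapping gene.

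FCGR1A encodes the high-affinity IgG receptor CD64, which is bound to the FCER1G chain. Its values were 28.6, 31.9 and 29.5 in sgNS and 17.5, 14.6 and 16.7 in sgMETTL1.3. The groups did not overlap, which held in the lower direction for 53.4% of tested genes. The means were 30.02 ± 1.71 and 16.3 ± 1.47 (SD, n = 3; log2 fold change -0.85, SE 0.11, limma adjusted p = 3.7e-05), and it fell as TPM (-0.51, limma adjusted p = 0.000712). FCGR1B, a partial duplicate that RefSeq now lists as a pseudogene, was 4.91, 6.38 and 5.53 in sgNS and 2.56, 1.96 and 2.69 in sgMETTL1.3. It fell as well (log2 fold change -0.96, SE 0.14, limma adjusted p = 8.94e-05). These rows are not independent: of the 50-base stretches in annotated FCGR1A transcripts, 49.6% also occur in FCGR1B, so the authors' estimate had to divide reads between them. Summed into 1 row the pair fell (-0.90, limma adjusted p = 2.55e-05). FCGR1A, at chromosome 1, 149782671 to 149792518, also overlaps the histone gene HIST2H2BF on the opposite strand, and whether reads were counted by strand is not given in the sources used here.

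**Figure D2:**
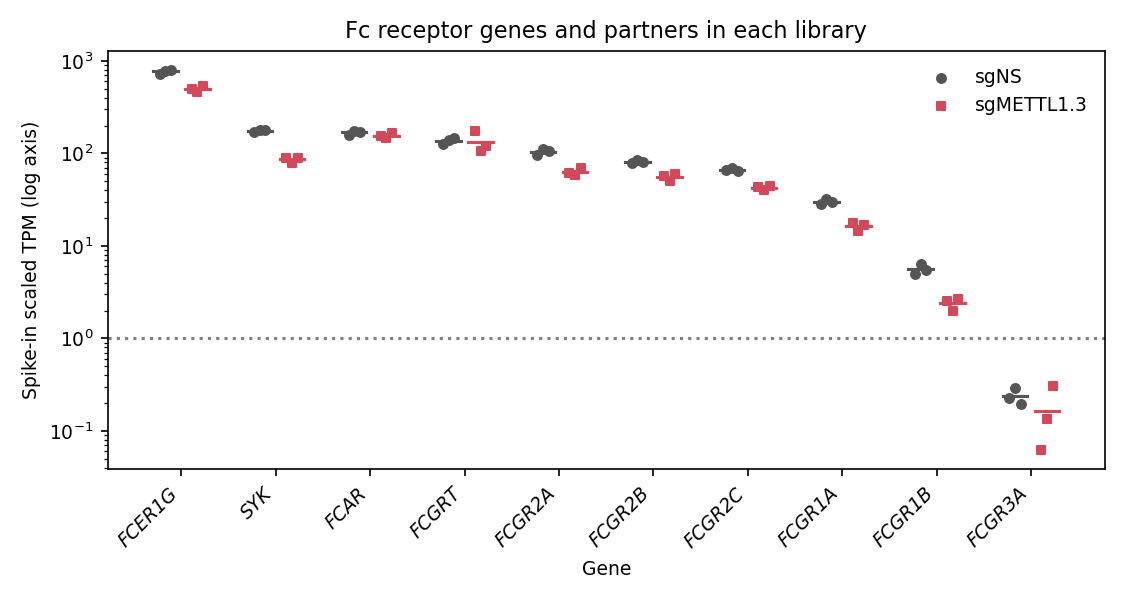
Value of each gene in each library on the spike-in scale (log axis), sgNS as circles and sgMETTL1.3 as squares, with a line at each group mean; the dotted line marks 1, the level used in the filter. FCER1G is highest and FCGR3A lies below the filter in all 6 libraries.

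The low-affinity FCGR2 receptors (CD32) fell together on the spike-in scale. FCGR2A, the activating form with its own ITAM, was 96.5, 110 and 107 in sgNS and 62.2, 58.1 and 69.9 in sgMETTL1.3 (log2 fold change -0.72, SE 0.11, limma adjusted p = 9.08e-05). FCGR2B, the inhibitory form, was 78.8, 84.2 and 80.6 against 57.5, 49.98 and 60.7 (log2 fold change -0.53, SE 0.10, limma adjusted p = 0.000797). FCGR2C, an activating form that is a pseudogene in many people, was 66.0, 69.0 and 64.9 against 43.1, 40.2 and 44.4 (log2 fold change -0.63, SE 0.098, limma adjusted p = 0.000123). In none of the 3 did the groups overlap, as was true in the lower direction for 53.4% of tested genes. As TPM, FCGR2A (-0.37) and FCGR2C (-0.29) fell, and FCGR2B had -0.19 with a 95% interval of -0.34 to -0.03 and did not pass (limma adjusted p = 0.0506).

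Reads of the FCGR2 genes are also hard to tell apart. Of the 50-base stretches of FCGR2C transcripts, 21.9% occur in FCGR2A and 21.5% in FCGR2B, while 3.21% of those of FCGR2A occur in FCGR2B. The FCGR2C row is therefore the least certain of the 3. The sum of the 3 rows was 241, 264 and 253 in sgNS and 163, 148 and 175 in sgMETTL1.3, and it fell by 0.64 on the log2 scale (limma adjusted p = 0.000127) and by 0.29 as TPM (limma adjusted p = 0.00981). The 3 genes lie on the plus strand of chromosome 1, FCGR2A at 161505430 to 161524013, FCGR2C at 161581339 to 161605662 and FCGR2B at 161663147 to 161678654. FCGR2A and FCGR2C both overlap the annotated transcript AL590385.2 on the same strand.

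FCGR3A, which encodes CD16a of natural killer cells and some monocytes, was near 0. Its values were 0.226, 0.295 and 0.193 in sgNS and 0.0615, 0.133 and 0.304 in sgMETTL1.3, and its near-copy FCGR3B reached at most 0.121. The groups overlapped and no fold is given. The read depth behind these values is unknown.

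FCAR, the IgA receptor CD89, was called on 1 scale only. It was 160, 177 and 170 in sgNS and 156, 146 and 166 in sgMETTL1.3, so the groups overlapped on the spike-in scale. The log2 fold change was -0.12 with a 95% interval of -0.33 to 0.10 (limma adjusted p = 0.335). As TPM the values were 141, 144 and 141 against 152, 175 and 175, without overlap, and FCAR rose by 0.23 on the log2 scale (limma adjusted p = 0.0254). As TPM, groups did not overlap in the higher direction for 30.2% of tested genes. That TPM call held without sgMETTL1.3 replicate 1 (0.30, limma adjusted p = 3.28e-06). It was lost without replicate 2 (0.20, limma adjusted p = 0.0815) or without replicate 3 (0.20, limma adjusted p = 0.0784). FCAR lies on chromosome 19 at 54874248 to 54890472 and overlaps no other gene.

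FCGRT, the FcRn heavy chain, was 128, 139 and 146 in sgNS and 174, 107 and 120 in sgMETTL1.3. The high value is that of sgMETTL1.3 replicate 1, the library whose deviations follow GC content, and the longest annotated FCGRT transcript is 62.6% GC, against 45.8% to 50.5% for the other 9 members. With all libraries the log2 fold change was -0.07 (95% interval -0.45 to 0.31, limma adjusted p = 0.749). Without that library FCGRT fell on the spike-in scale (-0.28, limma adjusted p = 0.0182), and it fell after GC correction (-0.28, limma adjusted p = 0.00395). As TPM it was 0.28 without passing (limma adjusted p = 0.0845), and it rose as TPM without that library (0.14, limma adjusted p = 0.00468). No direction can be given for FCGRT that holds across these fits. B2M, its light chain and also that of MHC class I, was 7644, 8421 and 8124 in sgNS and 9064, 9098 and 10608 in sgMETTL1.3 and rose narrowly (0.25, limma adjusted p = 0.0499); without sgMETTL1.3 replicate 3 it was no longer called, and as TPM it rose by 0.60.

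Ratios between members within a library do not depend on the spike-in factor, and they show how unequal the changes were. These ratios were chosen after the values were seen and are given without a test. FCER1G stood at 4.37 ± 0.0845 times SYK in sgNS and 5.82 ± 0.215 times in sgMETTL1.3 (SD, n = 3). Against FCAR the shift was the other way, from 4.56 ± 0.149 to 3.21 ± 0.0683. FCAR over SYK went from 0.958 ± 0.0245 to 1.81 ± 0.0687, and in the order of levels SYK moved from place 2 in each control to place 4 in each sgMETTL1.3 library. SYK and FCAR were close in sgNS, where their ranges overlapped, as did those of FCAR and FCGRT, and of FCGR2A and FCGR2B, in sgMETTL1.3. No other neighbours in the order of levels overlapped in a group. The activating FCGR2A stood at 1.22, 1.31 and 1.33 times the inhibitory FCGR2B in sgNS and at 1.08, 1.16 and 1.15 times in sgMETTL1.3. The lowest ratio is that of sgMETTL1.3 replicate 1, and the longest transcripts are 45.8% GC for FCGR2A and 50.5% for FCGR2B. With GC correction on the spike-in scale the log2 fold changes of FCGR2A and FCGR2B were -0.67 and -0.57, against -0.72 and -0.53 without it. Whether GC content bears on this ratio was not tested. FCGR2B made up 32.2 ± 0.423% of the FCGR2 sum in sgNS and 34.6 ± 0.816% in sgMETTL1.3, and the shares of FCGR2C overlapped (26.4 ± 0.856% and 26.3 ± 0.873%). The plot of ratios shows 4 of these by library, and in each the groups do not overlap.

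**Figure D3:**
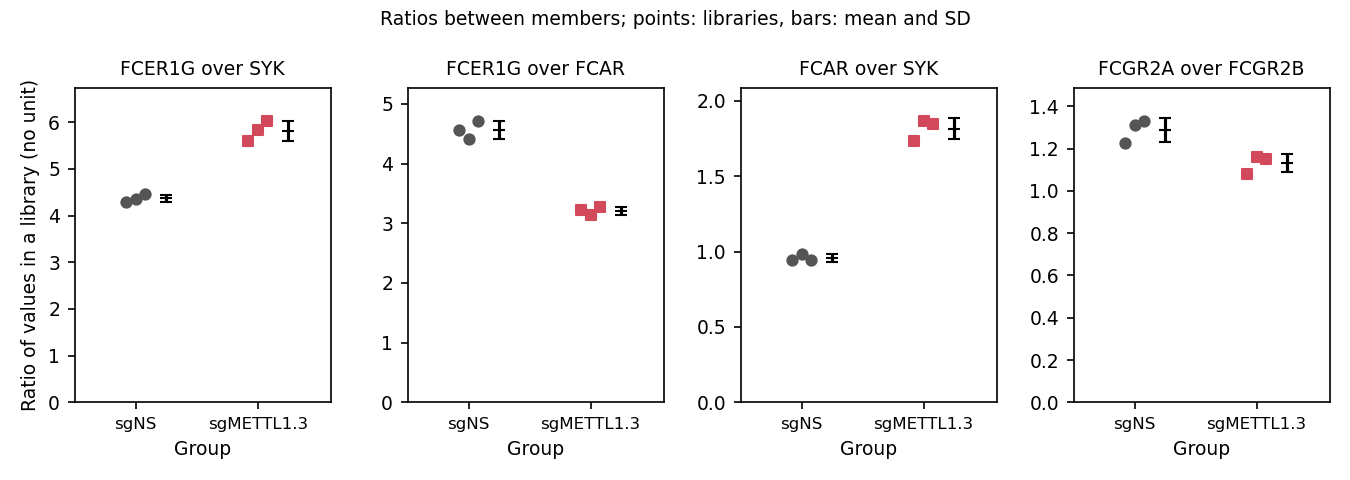
Ratio of 2 members' values within each library (y axis, no unit, from 0) for sgNS (circles) and sgMETTL1.3 (squares), with the mean and SD of 3 libraries beside them. FCAR over SYK is 0.941 to 0.986 in sgNS and 1.74 to 1.86 in sgMETTL1.3.

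Upstream of SYK, the Src family kinases start the signal by phosphorylating the ITAM. LYN, a kinase of Fc receptor complexes in myeloid cells, fell from 150.5 ± 9.11 to 101 ± 7.91 (-0.57, and -0.22 as TPM), and YES1 fell (-1.23). FGR, a myeloid member, had -0.12 and did not pass, and rose as TPM (0.22, limma adjusted p = 0.0241), while FYN rose from a low level (1.64 ± 0.195 to 2.98 ± 0.0721). Of the 5 counted, 2 fell and 1 rose, against 2 and 2 as TPM, too few to set apart from the 49.3% lower and 6.4% higher of all tested genes (26.6% and 24.4% as TPM). LCK and BLK were at 0 in all 6 libraries.

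Listed receptors and adaptors, most of which also signal through SYK, changed unevenly. Of 9 tested genes, 6 fell and 1 rose, and 4 fell and 3 rose as TPM. HCST, an adaptor without an ITAM, is among those that rose as TPM (0.46). Among all tested genes 49.3% fell and 6.4% rose, or 26.6% and 24.4% as TPM, and nothing particular to the list is read from its count. CLEC5A, a receptor that pairs with the TYROBP adaptor, fell from 37.2 ± 2.41 to 10.5 ± 1.08 (-1.74, limma adjusted p = 2.72e-07). The beta-glucan receptor CLEC7A (-1.38), CD300LB (-1.02) and SIRPB1 (-0.79) fell under both scalings. TYROBP, the ITAM adaptor closest in role to FCER1G, was 12.8, 21.4 and 21.3 in sgNS and 12.2, 9.2 and 12.0 in sgMETTL1.3; it fell on the spike-in scale (-0.66, limma adjusted p = 0.0214) and did not pass as TPM (-0.33, limma adjusted p = 0.133). TREM1, another TYROBP-coupled receptor, rose from 235.5 ± 9.35 to 290 ± 20.3 (0.30, limma adjusted p = 0.0187).

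Downstream of SYK, the relay list of kinases, adaptors and lipid kinases had 19 of 33 tested genes lower and 3 higher (median -0.44), and 9 lower and 10 higher as TPM (median -0.09). LAT2, an adaptor of Fc receptor complexes, fell from 248 ± 8.11 to 114 ± 10.5 (-1.12, limma adjusted p = 1.96e-06). The phosphoinositide 3-kinase genes PIK3CG (-1.18) and PIK3CB (-1.12) and the kinase gene BTK (-0.94) fell under both scalings. PLCG2, phospholipase C gamma of myeloid cells, did not pass (-0.25, limma adjusted p = 0.0586). MAPK3, which encodes ERK1, rose from 16.9 ± 1.11 to 32.0 ± 8.75 (0.85), with its highest value, 42.0, in sgMETTL1.3 replicate 1. Set beside all tested genes (49.3% lower and 6.4% higher, or 26.6% and 24.4% as TPM), these counts are no result about the list.

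Of 18 tested genes listed as brakes on the signal, 11 fell and 2 rose (median -0.33), and 4 fell and 4 rose as TPM (median 0.01). The same background of 49.3% lower and 6.4% higher, or 26.6% and 24.4% as TPM, applies, and the count is no result about the list. The phosphatase gene PTPN11, which encodes SHP-2, fell from 140 ± 7.44 to 49.3 ± 3.23 (-1.49, limma adjusted p = 2.72e-07), and PTPN6, which encodes SHP-1, fell from 227 ± 15 to 116 ± 17.7 (-0.97). UBASH3B, a phosphatase that acts on SYK, fell from 112 ± 3.61 to 44.5 ± 3.78 (-1.31), and PTPN22 fell (-0.77). The ubiquitin ligase gene CBLB rose from 6.04 ± 0.0532 to 9.58 ± 0.740 (0.59). INPP5D, the lipid phosphatase SHIP1 that FCGR2B recruits, fell on the spike-in scale (-0.46, limma adjusted p = 0.00346) and did not pass as TPM (-0.11, limma adjusted p = 0.113).

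**Figure D4:**
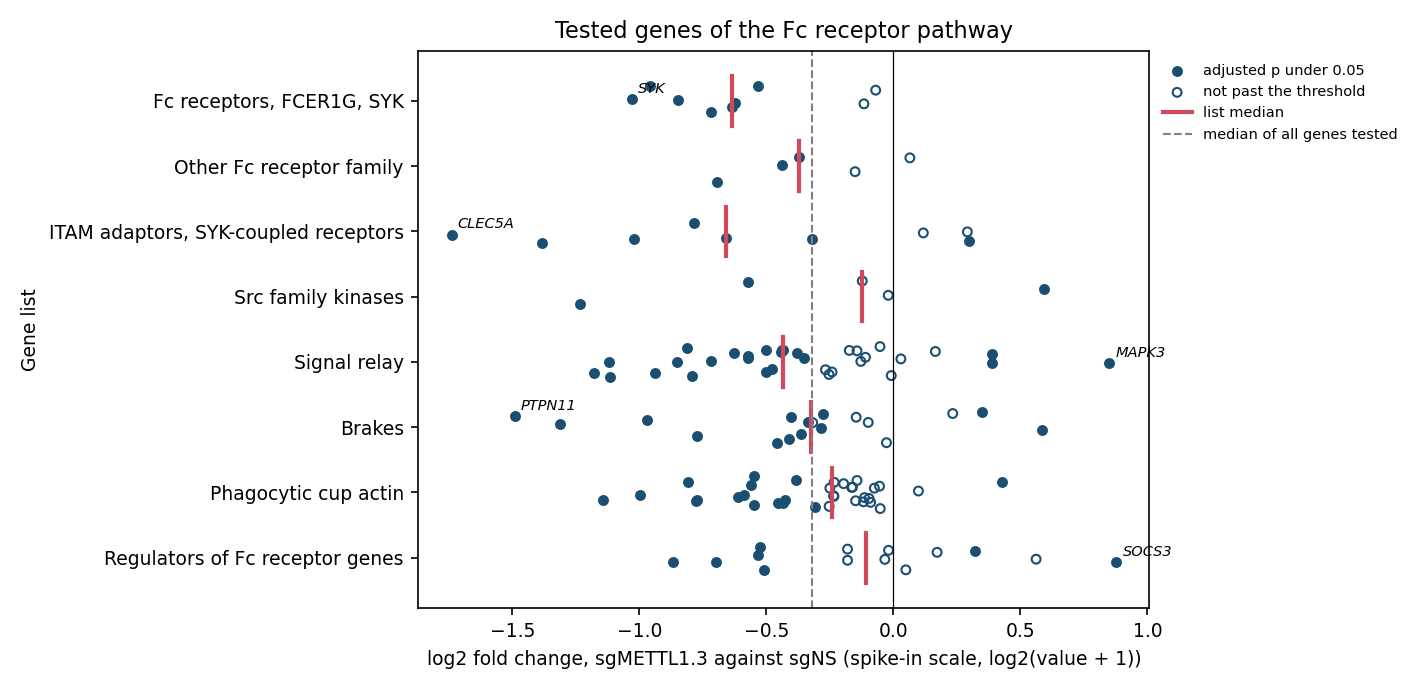
Log2 fold change of each tested gene (x axis, spike-in scale) by gene list (rows); filled points passed an adjusted p of 0.05, red bars are list medians and the dashed line is the median of all genes tested. CLEC5A lies farthest to the left at -1.74. Genes on either side of 0 occur in 7 of the 8 lists plotted, all but the row of Fc receptors with FCER1G and SYK. That exception does not hold as TPM, where FCAR (0.23) and FCGRT (0.28) of that row lay above 0.

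The actin machinery of the phagocytic cup had 15 of 34 genes lower and 1 higher (median -0.24), and 6 lower and 9 higher as TPM (median 0.11). With 49.3% of all tested genes lower and 6.4% higher, or 26.6% and 24.4% as TPM, this list was not lower more often than genes in general on the spike-in scale. Without sgMETTL1.3 replicate 1, 26 of the 34 were lower on the spike-in scale, as were 7538 of all 12286 genes tested in that fit. MARCKS (-1.14), the Arp2/3 subunit gene ACTR2, WASF2 (-0.81) and the kinase gene PAK1 (-0.78) fell under both scalings, and WASL rose from 3.77 ± 0.724 to 5.38 ± 0.559 (0.43). ACTR2, at 966.5 ± 55.5 in sgNS, fell to 485 ± 51.2 (SD, n = 3).

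Among regulators of Fc receptor genes, 5 of 14 fell and 2 rose (median -0.11), and 2 fell and 5 rose as TPM (median 0.17). Beside the 49.3% lower and 6.4% higher of all tested genes, or 26.6% and 24.4% as TPM, nothing is read from these counts. The transcription factor gene IRF8 (-0.87) and the interferon gamma receptor subunit gene IFNGR2 (-0.52) fell under both scalings. SOCS3, an inhibitor of cytokine signalling, rose from 0.962 ± 0.168 to 2.60 ± 0.336 (0.88). SPI1, which encodes PU.1, was 113, 120 and 124 in sgNS and 152, 79.3 and 95.3 in sgMETTL1.3, and did not pass (-0.18, limma adjusted p = 0.528). Its high value is again in sgMETTL1.3 replicate 1. Whether these factors bear on the receptor genes was not tested.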

How the data were processed

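The deposited table holds signal values: TPM multiplied by 1 spike-in factor per library, which was read from the values (the 92 ERCC rows sum to 38252 in each column). Per the submitters' processing notes the authors used cutadapt, STAR and RSEM with GRCh38 and hg38; their versions, the gene annotation and any use of strand were not given in the sources used here. Per the labels, 300 ng of total RNA entered each library. The depth is unknown, so no counting interval is given, and the number of libraries limits the precision.

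Genes reaching 1 in 3 or more of the 6 libraries were fitted as log2(value + 1) by limma 3.58.1 (R 4.3.3; trend, robust, two-sided, no block), spike-ins left out; the pseudocount of 1 understates changes of low genes. The fit was tested on simulated data. TPM was recovered by dividing each column by its sum, scaled to a fixed total. Coordinates and GC content came from GENCODE 29 (GRCh38), with GC values for 94.3% of the genes tested. The members and gene lists were chosen with earlier results of these data known. Named genes were all members, up to 4 genes per list by smallest p, and 1 in the opposite direction where called; further genes named by their role (FGR, TYROBP, PLCG2, INPP5D, SPI1) were chosen after their values were seen. Some list genes are not reported here, and the lists' counts and medians leave them out. Of the list genes, OSCAR, LILRB1, LILRB2, LILRB4 and IGHM had no row used here. Alternatives were other scalings, filters, pseudocounts, variance models, a replicate block, summed paralogs and each library left out; GC correction, and TPM combined with GC correction, block or summed paralogs, were added after seeing the data.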

Additional observations from a re-analysis of the deposited data

How the results depend on the processing

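SYK, FCER1G, FCGR1A, FCGR2A and FCGR2C were called lower under each of the 23 alternatives, and FCGR1B under the 22 that held its row or sum. The fits with summed paralogs held no row for a single FCGR1 or FCGR2 gene, and the sum was read in its place. Leaving out 1 library each gave SYK -1.06 to -0.96, and METTL1 -1.50 to -1.29. FCGR2B stayed lower, but did not pass as TPM (-0.19), with quantile normalization (-0.11), as TPM with the replicate block (-0.19) or as TPM without sgMETTL1.3 replicate 2 (-0.19). FCAR changed sign wherever the scale was not tied to the spike-ins: 0.23 as TPM, also with the replicate block or summed paralogs, 0.25 with median ratios, 0.32 with quantiles, 0.22 as TPM with GC correction, and 0.20 to 0.30 as TPM without 1 sgMETTL1.3 library. FCGRT changed sign in the same fits: 0.28 as TPM, also with the replicate block or summed paralogs, 0.29 with median ratios, 0.37 with quantiles, 0.072 as TPM with GC correction, and 0.14, 0.34 and 0.35 as TPM without sgMETTL1.3 replicate 1, 2 and 3. On the spike-in scale FCGRT ranged from -0.28 (without sgMETTL1.3 replicate 1) to 0.073 (without replicate 2), and was -0.28 with GC correction, past the threshold in both fits at -0.28.

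Members called higher numbered 0 on the spike-in scale (0 at an unadjusted p under 0.05), 1 as TPM, with median ratios, as TPM with GC correction, with the replicate block or with summed paralogs, 2 with quantiles, and 0 to 2 as TPM without 1 sgMETTL1.3 library. Members lower numbered 7 in the main fit, and 6 as TPM, with quantiles or with the filter on a mean of 5. With summed paralogs under either scaling they numbered 4, where 6 rows were tested. On the spike-in scale, leaving out 1 library gave 7 to 8 lower and 0 higher. In those fits the genes lower ranged from 4880 of 12279 to 7538 of 12286 tested. As TPM, leaving out 1 sgMETTL1.3 library gave 6 to 7 members lower. Among all genes, 797 rose and 6142 fell. Genes higher numbered 3021 as TPM (also with summed paralogs), 3142 with median ratios, 2978 with quantiles, 510 with the filter on a mean of 5, which tests fewer genes, 3448 as TPM with GC correction, 2824 as TPM with the replicate block, and as TPM 4231, 2520 and 2425 without sgMETTL1.3 replicate 1, 2 and 3. Genes lower numbered 3295 as TPM, 3344 with median ratios, 3231 with quantiles, 3077 as TPM with the replicate block, 3292 as TPM with summed paralogs, and as TPM 4313, 2996 and 3089 without sgMETTL1.3 replicate 1, 2 and 3. These scalings put the median change near 0.

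The values gave no sign that the replicate numbers pair the samples. Same-numbered libraries had correlations of deviations of -0.01, 0.00 and -0.04, and of the 6 libraries only sgMETTL1.3 replicate 2 correlated best with its own number. All pairs of libraries across the groups lay between -0.04 and 0.03, so this check cannot exclude a pairing. With the replicate block on the spike-in scale, 814 genes rose and 5861 fell, 7 members were lower, and no member changed its call.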

Other observations

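Other genes of the Fc receptor family were mostly absent. Of 16 genes, 11 stayed below 1 in every library, including the high-affinity IgE receptor gene FCER1A, at 0 in all 6, and MS4A2. FCER2, the low-affinity IgE receptor CD23, was the most abundant of those tested in sgNS, at 53.9, 50.7 and 53.2 in sgNS and 41.1, 26.4 and 30.4 in sgMETTL1.3, and it fell (log2 fold change -0.69, limma adjusted p = 0.00166; as TPM -0.35, limma adjusted p = 0.0281). TRIM21, a cytosolic antibody receptor, fell from 42.7 ± 3.55 to 32.8 ± 3.63 (SD, n = 3; -0.37) and FCRLB fell from 5.43 ± 0.0954 to 3.78 ± 0.709 (-0.44); neither passed as TPM. FCMR, the IgM receptor gene, was 3.85 ± 0.228 and 3.38 ± 0.480 and did not pass (-0.15).

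The pattern of SYK, the member with the most negative change, was most like those of ATRAID, the chaperonin subunit gene CCT3 and the anion transporter gene SLC26A9, with Pearson r over the 6 libraries of 1.000 for each after rounding. The libraries share the guide difference and the spike-in factor, and 1131 genes had an r above 0.99, so this is a description only. ATRAID fell from 118 ± 4.45 to 48.9 ± 4.94, CCT3 from 604 ± 19.9 to 292 ± 23.4 and SLC26A9 from 89.5 ± 3.07 to 46.0 ± 3.37 (SD, n = 3).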
